A study of Danio rerio with 8 samples.

Results

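Glycolysis was followed here through 40 zebrafish genes: the enzymes that turn glucose into lactate, the kinases that set its pace, and the carriers that bring glucose in and let lactate out. They were taken by symbol from the count files, and counts of rows that share a symbol were summed, which gave 40 members of 37685 symbols. Of these, 36 passed the filter on low counts among 16631 tested symbols. The 4 that did not pass were tpi1a, eno1a, aldoca and slc2a1a, and the last pair had under 10 counts in all 8 libraries together. The libraries came from tcf21:nEGFP-positive epicardial cells, the outer layer of the heart, sorted from ventricles of fish aged 70 days after fertilization and of similar body size. There were 4 libraries from cxcr4a mutants, allele cxcr4aum20, whose treatment label reads coronary loss, and 4 from wild type (WT), labelled control. Fish of both genotypes carried the reporter, in which a nuclear green protein is driven by tcf21 sequences, so a cell enters the sort by its reporter and not by its full identity. The sources used here do not say whether a library came from 1 fish or a pool, so p-values measure only the spread between these libraries.

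Glycolysis splits glucose into pyruvate in the cytosol and yields ATP without oxygen. Lactate dehydrogenase then turns pyruvate into lactate, which regenerates the cofactor that the pathway consumes, and monocarboxylate transporters export the lactate. Many of these genes are known targets of the hypoxia-inducible transcription factors, and most steps have several isozymes that differ between tissues, such as muscle, liver and brain forms. Zebrafish carry additional copies of several of these genes from a genome duplication in the ancestor of teleost fish.

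Library totals were 18891079 to 25513003 counts in mutants and 19584695 to 28471786 in WT. The epicardial gene tcf21 averaged 88.5 ± 17.6 CPM in mutants and 109 ± 31.1 CPM in WT, and tbx18, a transcription factor gene of the epicardium, 749 ± 65.2 CPM in mutants and 827 ± 276 CPM in WT (SD, n = 4 each). CPM, counts relative to the library total, are scaled here with TMM factors, and levels are compared between libraries and not between genes, because transcript lengths were not used. Of the 20 epicardial markers found, upk3b was at 0 in every library. Their summed level was 10443 to 24570 CPM in mutants and 10928 to 25285 CPM in WT. wt1b had the opposite direction, at 140 ± 45.1 CPM in mutants and 104 ± 30.7 CPM in WT. The abundant marker tgm2b averaged 2257.5 ± 294 CPM in mutants and 3470 ± 877 CPM in WT. It was the only 1 of the 16 tested whose groups did not overlap, against 2.82% of all tested symbols lower in mutants. Genes of other cell types were counted too: the summed level of 31 cardiomyocyte genes was 909.9 to 4044 CPM in mutants and 987.6 to 2571 CPM in WT, with none at 0 throughout. Of 22 erythrocyte genes, hbae3 and gata1a were at 0 throughout, and the sum ranged over 3335 to 9025 CPM in mutants and 942.5 to 14259 CPM in WT. Mitochondrial rRNA took 3.33 to 7.38% of counts in mutants and 3.82 to 21.4% in WT, with the highest share in WT 1 (exact permutation p = 0.343 over 70 assignments, 0.543 after Benjamini-Hochberg adjustment over 2 library measures).

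Most glycolysis genes had higher mean levels in mutants, but none passed the test over all genes. The log2 fold change was above 0 for 33 of the 36 tested members, against 50.7% of all tested symbols, and their median was 0.83, against 0.01 over all tested symbols. By edgeR's quasi-likelihood test with Benjamini-Hochberg adjustment over all 16631 symbols, 0 members were called at an adjusted p under 0.05, where 0.0481% of all symbols were. At an unadjusted p under 0.05 there were 12 members higher and 0 lower in mutants, against 5.09% and 3.55% of all symbols. DESeq2 called 2 members higher, gpib and pfkfb3, and 0 lower, against 1.41% and 1.06% of the symbols to which it gave an adjusted p. It gave no p-value for pgk1, so its count covers 35 members. The limma voom fit with quality weights called 0. The groups did not overlap for 2 members, both higher in mutants, and for 0 lower ones, against 3.48% and 2.82% of all tested symbols. In bulk RNA, fewer cells of a type and less RNA per cell cannot be told apart.

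Markers of 2 other cell types also lay mostly above 0 in the same fit. Of 25 tested cardiomyocyte genes 23 were positive, against 50.7% of all tested symbols. Their median log2 fold change was 1.04, above that of the glycolysis genes. At an unadjusted p under 0.05 by edgeR 6 of them were higher, against 5.09% of all tested symbols. Of 17 tested mural genes, from the cells that wrap vessels, 16 were positive (median 0.48) and 4 were higher at that p. The summed level of the mural genes was 3004, 13503, 1587 and 1676 CPM in mutants 1 to 4 and 1480, 983.7, 5533 and 6933 CPM in WT 1 to 4, and none of the 19 found was at 0 throughout. Both sums overlapped between genotypes. Mutant 1 had the lowest cardiomyocyte sum of the 8 libraries, at 909.9 CPM, and mutant 3 the highest, at 4044 CPM. Without cxcr4a mutant 1 the cardiomyocyte median was 1.27, with 22 of 25 positive, and the mural median 0.67, with 15 of 17 positive. In that fit 12 cardiomyocyte and 3 mural genes were higher at an unadjusted p under 0.05 by edgeR, against 3.28% of all symbols. Medians of the epicardial, endothelial, erythrocyte, leukocyte and thrombocyte lists were between -0.58 and -0.071 with all 8 libraries. The part of cardiomyocytes or mural cells in the levels of the glycolysis genes was not tested.

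These differences were largest in 1 library. cxcr4a mutant 1 was the highest of all 8 libraries for 22 of the 36 members, against 12.6% of all tested symbols. In that library the median member stood at 2.26 times the mean of the other 3 mutants, against 0.936 times for the median of all tested symbols. The other 3 mutants together stood at 1.40 times the WT mean for the median member, against 1.01 for all symbols. Without cxcr4a mutant 1 the median log2 fold change of the members was 0.47, 30 were positive, against 49.6% of all symbols in that fit. At an unadjusted p under 0.05 by edgeR there were then 5 members higher and 1, pklr, lower in mutants, against 3.28% and 2.87% of all symbols. The number of members higher at that p was 5 without WT 1, 7 without WT 2 and 5 without WT 3, against 5.78%, 4.44% and 4.15% of all symbols. At the other end, WT 1 was the lowest of the 8 libraries for 15 members, against 14.9% of all tested symbols, and it is the library with the highest share of mitochondrial rRNA. Without cxcr4a mutant 1 and WT 1 the groups, now of 3 libraries, did not overlap for 3 higher members (gpib, pgam2 and pfkfb3) and 1 lower one (pklr), against 7.25% and 8.84% of all tested symbols.

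**Figure D1:**
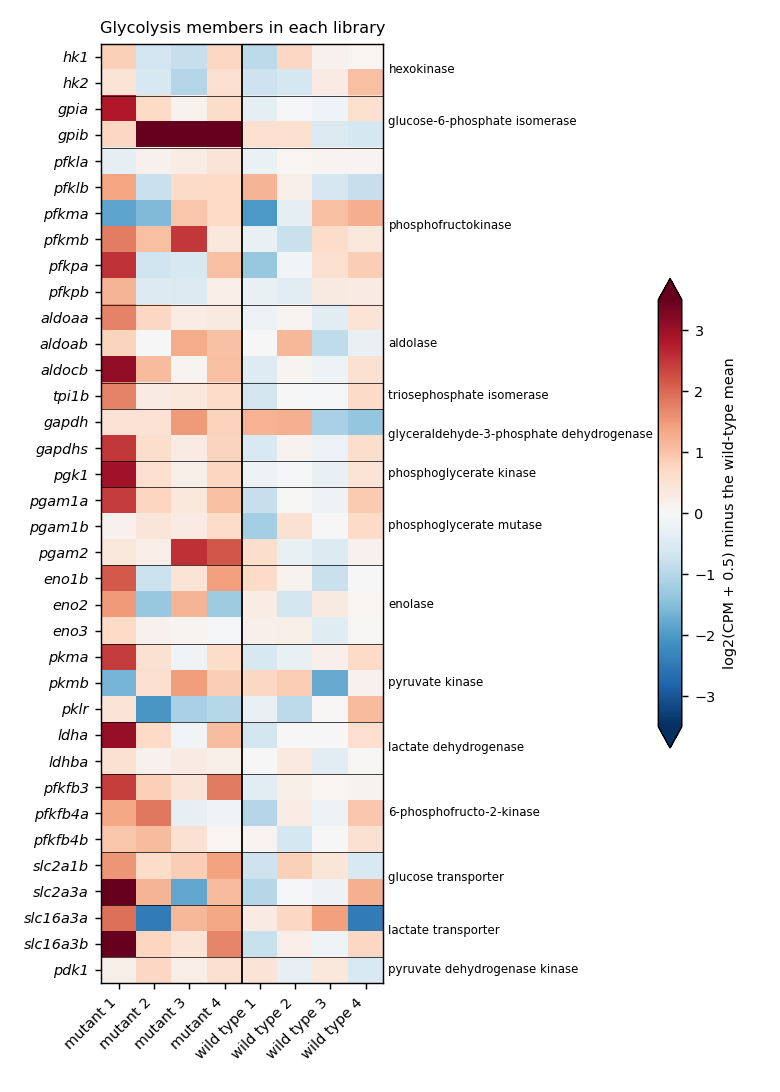
Each row is 1 of the 36 tested members, ordered by pathway step, and each column 1 library. Colour gives log2(CPM + 0.5) minus the mean of the 4 wild-type libraries, with values beyond 3.5 shown in the end colours. Mutant 1 is the darkest red column for most enzymes, whereas gpib and pgam2 are highest in mutants 3 and 4.

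Sums of oxygen-sensitive genes and of handling stress genes were highest in mutants 1 and 2. The summed level of 40 oxygen sensors and other oxygen-sensitive genes was 10593, 8348, 4378 and 4533 CPM in mutants 1 to 4 and 3529, 4204, 2928 and 4330 CPM in WT 1 to 4. All 4 mutants were thus above the WT libraries in that sum, mutant 1 the most and mutant 3 by little. The most abundant tested genes of the list, loxl2a and hif1al, had 1201 and 2425 CPM in mutant 2 and 605 and 881 CPM in WT 4. The sum of 26 other sugar and monocarboxylate carriers and their partners did not overlap either, at 293 to 450 CPM in mutants and 210 to 284 CPM in WT. How often sums of gene lists separate was not taken. The sum of 32 handling stress genes, which are known to respond when cells are dissociated, was 14335, 22014, 5871 and 8213 CPM in mutants and 7450, 5383, 10659 and 9015 CPM in WT. It was highest in mutants 2 and 1. The part of oxygen or of handling stress in the levels of the glycolysis genes was not tested.

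Entry of glucose into the pathway was counted through its carriers and hexokinases. slc2a1b, which encodes a GLUT1-type glucose carrier, had 64.0, 34.6, 39.9 and 58.3 CPM in mutants 1 to 4, against 12.9, 39.6, 29.2 and 14.97 CPM in WT 1 to 4. Of the mutants, only mutant 2 lay below the highest WT library, and the gene had a log2 fold change, mutant over WT, of 1.02 ± 0.39 (SE from 4 libraries a group; edgeR adjusted p = 0.496). slc2a3a, a GLUT3-type carrier gene, had 37.9 CPM in mutant 1, at most 3.48 CPM in the other mutants and at most 3.66 CPM in WT. Its log2 fold change was 2.83 ± 1.46 (edgeR adjusted p = 0.638), 0.50 without mutant 1 and 3.67 without WT 4. slc2a1a had 0 counts in mutants and 8 in WT, all of them in WT 1, and was not tested.

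Hexokinase, which traps glucose as glucose 6-phosphate, was the step whose group means were closest. Its summed level was 26.4, 10.2, 8.20 and 25.8 CPM in mutants and 8.74, 18.8, 18.9 and 25.7 CPM in WT. The log2 fold changes were 0.11 ± 0.52 for hk1 and -0.19 ± 0.55 for hk2 (edgeR adjusted p = 0.979 and 0.965). The direction of both turned when single libraries were left out, with log2 fold changes from -0.21 to 0.40 for hk1 and from -0.44 to 0.31 for hk2.

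The rows that make up each hexokinase symbol differed far more than their sum. Rows of a symbol are separate lines of the count table that carry an added number, and the sources used here do not say what separates them in the annotation. The plain row held 89.0, 85.6, 61.2 and 95.0% of hk2 counts in mutants 1 to 4, against 1.14, 3.51, 0 and 0% in WT 1 to 4. In total the plain row had 663 counts in mutants and 5 in WT, and the second row 89 in mutants and 884 in WT. For hk1 the plain row held 64.6, 90.7, 79.8 and 94.7% in mutants, against 29.5, 17.4, 48.4 and 50.8% in WT. For pfkpb it held 37.8, 52.8, 32.5 and 55.6% in mutants, against 20.9, 23.1, 22.7 and 26.0% in WT. These 3 symbols, of 4 members with at least 2 rows of 10 or more counts and some count in every library, had shares that did not overlap between genotypes, and so did 32.7% of all 1724 such symbols. With rows kept apart, the plain row of hk2 was the only member called (log2 fold change 6.86 ± 1.15, edgeR adjusted p = 0.0447), where 0.35% of all 18002 tested rows were.

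**Figure D2:**
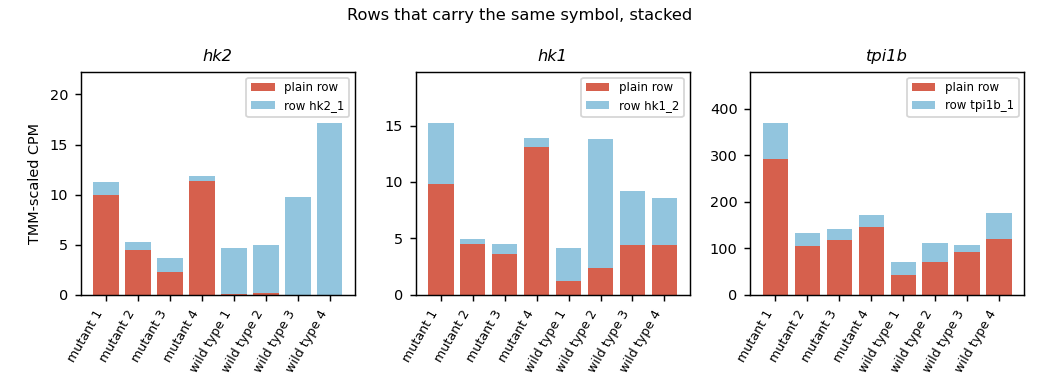
Stacked bars give the CPM of the rows that carry 1 symbol in each of the 8 libraries, for hk2, hk1 and tpi1b; the hk1 row with a single count is left out. For hk2 nearly all counts lie on the plain row in mutants and on the second row in wild type, while the totals overlap.

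After hexokinase, the part of the pathway that spends ATP runs on through an isomerase, phosphofructokinase and aldolase. gpia, encoding glucose-6-phosphate isomerase, had 1501, 350.3, 236 and 334 CPM in mutants, against 171, 206, 192 and 316 CPM in WT. Mutant 3 lay below WT 4, and mutant 1 lay far above all other libraries. For gpia the log2 fold change amounted to 1.45 ± 0.56 (edgeR adjusted p = 0.504), and 0.46 without mutant 1.

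Its paralog gpib had another pattern. It had 0.762, 9.05, 15.2 and 20.2 CPM in mutants, against 0.632, 0.610, 0.0299 and 0 CPM in WT. The groups did not overlap, but mutant 1 was close to WT 1. gpib had 1101 counts in mutants and 27 in WT, and its log2 fold change came to 5.16 ± 1.303 (edgeR adjusted p = 0.264; DESeq2 adjusted p = 5.2e-04). Its edgeR adjusted p was 0.298 to 0.449 when single libraries were left out. It was 2.52 to 6.05% of the counts of both isomerase genes in mutants 2 to 4, and at most 0.369% in mutant 1 and in WT.

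Phosphofructokinase commits sugar to glycolysis and has liver (l), muscle (m) and platelet (p) forms. The summed level of its 6 genes was 314, 75.1, 98.8 and 162 CPM in mutants and 71.3, 92.7, 125 and 140.0 CPM in WT. The groups overlapped widely, and the excess of mutant 1 lay in pfkpa. pfkpa had 234, 24.4, 27.0 and 83.0 CPM in mutants, against 15.6, 37.8, 58.9 and 73.3 CPM in WT. Its log2 fold change was 0.99 ± 0.73 (edgeR adjusted p = 0.771), and -0.065 without mutant 1. pfkla was the steadiest of the 6, with 23.8 to 41.8 CPM in mutants and 25.8 to 32.3 CPM in WT (log2 fold change 0.15 ± 0.23, edgeR adjusted p = 0.904). The muscle-type gene pfkma had 0.952, 1.28, 9.67 and 7.85 CPM in mutants, against 0.790, 3.66, 10.4 and 11.9 CPM in WT. Both groups held low and high libraries, and the same 4 libraries (mutants 3 and 4, WT 3 and 4) had the highest summed erythrocyte level. They also had the highest leukocyte sum, at 2910 and 5050 CPM in mutants 3 and 4 and 4173 and 3090 CPM in WT 3 and 4. That sum was at most 2794 CPM in the others. The part of either cell type was not tested. pfkmb had 188 counts in mutants and 45 in WT, and 84 of those in mutants lay on a row with 0 counts in WT (log2 fold change of the sum 2.33 ± 1.12, edgeR adjusted p = 0.605; 2.93 without WT 3). WT 2 had no pfkmb counts on any row, so its row shares were not compared.

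Aldolase, which cleaves the sugar into trioses, was counted mainly through aldoaa and aldocb, named for muscle and brain forms in mammals. aldocb had 2064, 519, 256 and 495 CPM in mutants, against 175, 256, 212 and 344 CPM in WT. Mutants 1, 2 and 4 lay above every WT library and mutant 3 did not (log2 fold change 1.76 ± 0.59, edgeR adjusted p = 0.446; 0.76 without mutant 1). aldoaa had 1318, 663, 480 and 495 CPM in mutants, against 348, 422, 309 and 557 CPM in WT (log2 fold change 0.85 ± 0.36, edgeR adjusted p = 0.550). aldocb took 60.6, 43.4, 33.3 and 48.7% of aldolase counts in mutants, against 32.6, 36.2, 40.2 and 37.7% in WT. Its share was above that of every WT library in mutants 1, 2 and 4.

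The steps after triosephosphate isomerase lead to the recovery of ATP. Triosephosphate isomerase, through tpi1b, had 368, 133, 142 and 172 CPM in mutants, against 69.6, 111, 106 and 176 CPM in WT (log2 fold change 0.82 ± 0.39, edgeR adjusted p = 0.603). Of the genes for glyceraldehyde-3-phosphate dehydrogenase, gapdhs, whose mammalian counterpart is known from sperm, had 7501, 2083, 1657 and 2333 CPM in mutants, against 942, 1493, 1177 and 2075 CPM in WT. Only mutant 3 lay below the highest WT library (log2 fold change 1.26 ± 0.50, edgeR adjusted p = 0.521; 0.49 without mutant 1).

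gapdh itself, often used as a reference gene, had 392, 394, 778 and 486 CPM in mutants, against 645, 657, 125 and 108 CPM in WT. WT fell apart into a high pair and a low pair, and the log2 fold change was 0.42 ± 0.59 (edgeR adjusted p = 0.899). The 4 libraries with the highest gapdh (mutants 3 and 4, WT 1 and 2) were also those with the highest summed level of cardiomyocyte genes. Their mitochondrial rRNA shares were also the highest: 7.38 and 4.75% in mutants 3 and 4, 21.4 and 9.96% in WT 1 and 2. The part of those cells or of that share was not tested. The cardiomyocyte sum was 909.9, 1454, 4044 and 2785 CPM in mutants and 2571, 1718, 1165 and 987.6 CPM in WT. The total of both gapdh genes did not overlap between genotypes, at 7893, 2477, 2435 and 2818 CPM in mutants and 1587, 2150, 1303 and 2183 CPM in WT.

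pgk1, encoding phosphoglycerate kinase, the first ATP-yielding enzyme, had 2157, 424, 323 and 473 CPM in mutants, against 248, 269, 236 and 394 CPM in WT. Mutants 2 and 4 lay just above WT 4 and mutant 3 below it (log2 fold change 1.56 ± 0.58, edgeR adjusted p = 0.491; 0.49 without mutant 1). pgam1a, a phosphoglycerate mutase gene, had 339, 103, 78.8 and 128 CPM in mutants, against 34.8, 63.5, 54.6 and 117 CPM in WT (log2 fold change 1.27 ± 0.51, edgeR adjusted p = 0.527; 0.60 without mutant 1). Its muscle-type relative pgam2 had 4.096, 3.60, 20.3 and 15.5 CPM in mutants, against 4.85, 2.44, 2.00 and 3.38 CPM in WT. Only mutants 3 and 4 were high. The cardiomyocyte sum was 4044 and 2785 CPM in these mutants and 2571 CPM in WT 1, the next highest library. The most abundant tested cardiomyocyte genes were mb and myl7. They had 1095 and 793 CPM in mutant 3, 1085 and 534 in mutant 4, and 1626 and 271 in WT 1. The part of those cells in pgam2 was not tested. The log2 fold change of pgam2 was 1.78 ± 0.63 (edgeR adjusted p = 0.472), and no single library left out brought it below 1.29.

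Enolase, which makes phosphoenolpyruvate, differed little between the group means. eno3, the form known from muscle in mammals, held 94.7 to 99.2% of enolase counts in mutants and 97.5 to 98.4% in WT. It had 493, 339, 326 and 287 CPM in mutants, against 343, 353, 225 and 310 CPM in WT, and the groups overlapped (log2 fold change 0.23 ± 0.24, edgeR adjusted p = 0.852). eno1b, an isozyme with fewer counts, had 22.6, 2.61, 6.72 and 13.6 CPM in mutants, against 7.80, 5.14, 2.54 and 4.66 CPM in WT (log2 fold change 1.18 ± 0.63, edgeR adjusted p = 0.656; 0.59 without mutant 1). eno2, known from neurons, had at most 3.05 CPM in any library, and its direction turned with the replicate number as a block. Its log2 fold change was 0.021 without mutant 1.

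**Figure D3:**
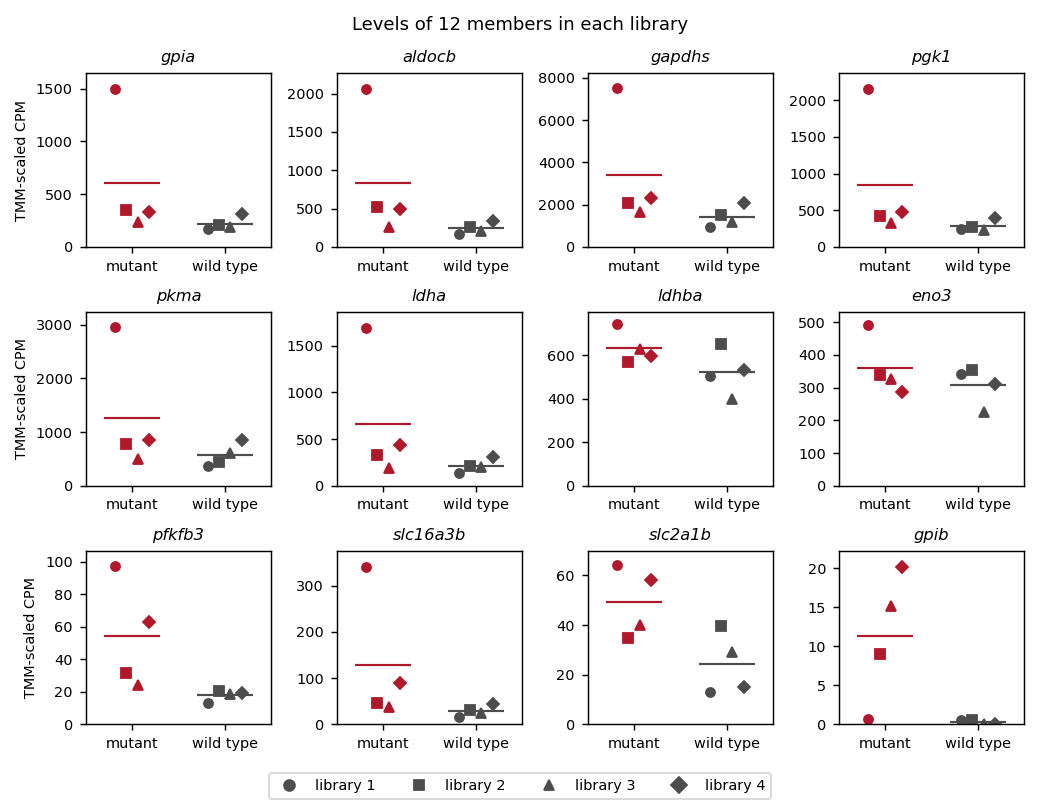
Points give the TMM-scaled CPM of 12 members in each library, with 1 symbol shape per library number, and lines the mean of 4 libraries. Mutant 1 lies far above the rest for gpia, aldocb, gapdhs, pgk1, pkma, ldha and slc16a3b, less so for ldhba and eno3, and at wild-type level for gpib.

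Pyruvate kinase closes glycolysis with a further ATP. pkma, the muscle-type gene, had 2954, 775, 493 and 851 CPM in mutants, against 363, 449, 608 and 859 CPM in WT. The groups overlapped, and only mutant 1 lay above WT 4 (log2 fold change 1.16 ± 0.55, edgeR adjusted p = 0.596; 0.29 without mutant 1). pklr, the form of liver and red blood cells, had the opposite sign, with 17.0, 2.61, 5.33 and 5.90 CPM in mutants, against 10.2, 6.27, 12.6 and 27.0 CPM in WT. Its share of pyruvate kinase counts was lower in every mutant, at 0.335 to 1.06%, than in any WT library, at 1.37 to 3.05%. The share of pkma was higher in every mutant, but shares of a step add up to its total, so the pkma and pklr shares are not independent. All other isozyme shares of a step overlapped. How often such shares separate over all genes was not taken. In mutant 1 the pklr share was 0.574% beside pkma at 2954 CPM, although its pklr level was above WT 1, 2 and 3. The log2 fold change of pklr was -0.86 ± 0.62 (edgeR adjusted p = 0.768), -1.61 without mutant 1 and -0.33 without WT 4. The erythrocyte sum was 3335, 4512, 9025 and 6202 CPM in mutants and 1173, 942.5, 9610 and 14259 CPM in WT. WT 4 was highest in both. Mutant 1 was second highest in pklr and had the lowest erythrocyte sum of the mutants. The part of erythrocytes in pklr was not tested.

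At lactate dehydrogenase the isozymes differed in how they varied. ldha, which favours lactate formation, had 1696, 331, 191 and 434 CPM in mutants, against 131, 207, 205 and 307 CPM in WT. Mutants 1, 2 and 4 lay above every WT library and mutant 3 within the WT range (log2 fold change 1.64 ± 0.63, edgeR adjusted p = 0.497; 0.57 without mutant 1). ldhba, of the heart-type form, had 744, 569, 627 and 595 CPM in mutants, against 504, 651, 398 and 531 CPM in WT, and its log2 fold change came to 0.28 ± 0.22 (edgeR adjusted p = 0.775). The share of ldha in the counts of both was 69.5, 36.8, 23.3 and 42.2% in mutants and 20.7, 24.2, 34.03 and 36.6% in WT. The shares overlapped between genotypes, and mutant 1 had the highest.

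Lactate leaves cells through monocarboxylate transporters such as the MCT4 type encoded by slc16a3 genes. slc16a3b had 341, 45.5, 37.5 and 88.8 CPM in mutants, against 15.2, 31.3, 24.1 and 44.1 CPM in WT. Mutants 1, 2 and 4 were above every WT library, mutant 2 by little. The log2 fold change of 2.16 ± 0.69 was the largest among members above 20 CPM on average, without passing (edgeR adjusted p = 0.410; DESeq2 adjusted p = 0.0559), and was 0.98 without mutant 1. slc16a3a had 0 to 9.81 CPM in mutants and 0 to 6.79 CPM in WT, with a library at 0 in each group.

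Kinases that regulate the pathway were also counted. pfkfb3 encodes a bifunctional enzyme that makes fructose 2,6-bisphosphate, an activator of phosphofructokinase. It had 97.6, 31.8, 24.4 and 63.3 CPM in mutants, against 13.3, 20.4, 18.8 and 19.4 CPM in WT. It was the other of 2 members whose groups did not overlap (log2 fold change 1.59 ± 0.42, edgeR adjusted p = 0.287; DESeq2 adjusted p = 0.0261), and it was at 1.13 without mutant 1. Its edgeR adjusted p was 0.256 to 0.560 when single libraries were left out. pfkfb4b, of the same family, had 208, 228, 154 and 110 CPM in mutants, against 113, 68.2, 105 and 152 CPM in WT (log2 fold change 0.68 ± 0.31, edgeR adjusted p = 0.578). pdk1, a kinase that inhibits pyruvate dehydrogenase in mitochondria, had 18.6, 27.0, 18.95 and 23.9 CPM in mutants, against 22.2, 13.2, 21.2 and 10.98 CPM in WT (log2 fold change 0.39 ± 0.30, edgeR adjusted p = 0.779).

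**Figure D4:**
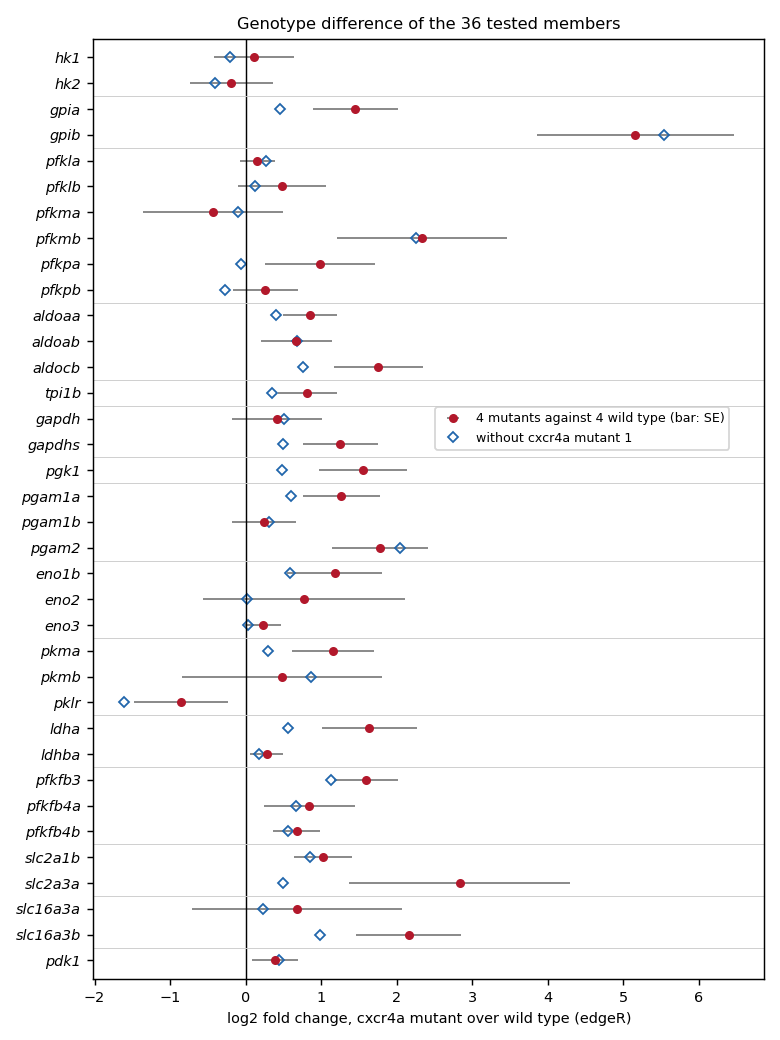
Filled points give the edgeR log2 fold change of each tested member, cxcr4a mutant over wild type, with its SE as a bar, and open diamonds the value without cxcr4a mutant 1. Of the 36 filled points 33 lie above 0, and 30 of the diamonds do; gpib, pgam2 and pfkmb keep most of their size, while ldha, pgk1 and gpia drop to about 0.5.

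Log2 fold changes of 8 other tested members were positive, and none passed the test. They were 0.48 for pfklb, 0.26 for pfkpb, 0.67 for aldoab, 0.25 for pgam1b, 0.48 for pkmb, 0.85 for pfkfb4a, 0.77 for eno2 and 0.68 for slc16a3a, and the lowest edgeR adjusted p among them was 0.755, that of aldoab. All 8 overlapped between genotypes, with aldoab at 12.6 to 32.4 CPM in mutants and 6.70 to 29.02 CPM in WT, and pgam1b at 9.14 to 12.99 CPM in mutants and 3.32 to 13.2 CPM in WT. Of the members left out by the filter, eno1a had 70 counts in mutants and 21 in WT, tpi1a 32 in mutants and 31 in WT, and aldoca 2 in mutants and 0 in WT.

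Summed by step, lactate transport differed most and hexokinase least in the ratio of means. The ratio of the mutant to the WT mean was 4.17 for the lactate transporters, 2.94 for phosphoglycerate kinase, 2.79 for the isomerase, 2.38 for aldolase, 1.77 for lactate dehydrogenase, 1.195 for enolase and 0.978 for hexokinase. Only the step of glyceraldehyde-3-phosphate dehydrogenase had totals that did not overlap, at 2435 CPM in the lowest mutant and 2183 CPM in the highest WT library. Each of its genes alone overlapped. These ratios carry the high values of mutant 1, as the plot of step totals shows.

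**Figure D5:**
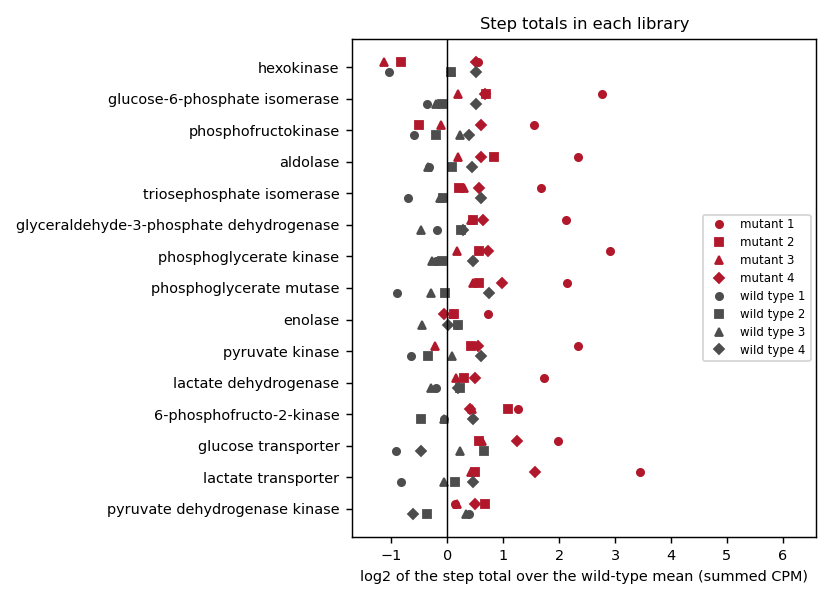
For each of 15 steps or carrier groups, points give log2 of the summed CPM of its genes in a library over the mean of the 4 wild-type libraries, with mutants in red above wild type in grey. Mutant 1 lies farthest right at most steps, and the other mutants lie mostly between 0 and 1.

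Connected pathways are described by the same counts and medians; their difference from the members was not tested. Of 19 tested citric acid cycle genes 8 were positive (median log2 fold change -0.068), and of 7 pentose phosphate genes 2 (median -0.21). Among them ogdha, a subunit of the oxoglutarate dehydrogenase complex, had groups that did not overlap, at 143 ± 21.8 CPM in mutants and 96.5 ± 16.7 CPM in WT (SD, n = 4; edgeR adjusted p = 0.488). It was the only 1 of the 19 citric acid cycle genes without overlap, against 3.48% of all tested symbols higher and 2.82% lower. taldo1, encoding transaldolase, averaged 202 ± 26.9 CPM in mutants and 253 ± 74.1 CPM in WT (edgeR adjusted p = 0.775). Of 15 genes for pyruvate entry into mitochondria, or for pyruvate dehydrogenase and its kinases, 8 were positive (median 0.091). The pyruvate dehydrogenase kinase genes pdk3a and pdk2b had the smallest p among these, at 17.5 ± 5.58 and 642 ± 410 CPM in mutants and 9.86 ± 2.48 and 237 ± 209 CPM in WT (edgeR adjusted p = 0.510 and 0.593). pdk3a was the only 1 of the 15 whose groups did not overlap.

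Glycogen genes had 13 of 18 positive (median 0.17), and gluconeogenesis genes 5 of 6 (median 0.35). pck2, the mitochondrial phosphoenolpyruvate carboxykinase gene, averaged 10.6 ± 3.60 CPM in mutants and 3.97 ± 1.11 CPM in WT without overlap (edgeR adjusted p = 0.323). phkb, a subunit of phosphorylase kinase, averaged 16.7 ± 2.62 CPM in mutants and 9.19 ± 2.92 CPM in WT, also without overlap (edgeR adjusted p = 0.486). Of 20 other glycolysis-related enzymes 12 were positive (median 0.038). The fructokinase gene khk averaged 4.34 ± 1.13 CPM in mutants and 1.52 ± 1.21 CPM in WT without overlap (edgeR adjusted p = 0.529). tigarb, whose product lowers fructose 2,6-bisphosphate in mammals, averaged 2.66 ± 0.986 CPM in mutants and 6.44 ± 2.96 CPM in WT, and its groups overlapped (edgeR adjusted p = 0.533). Each of these lists held 1 gene without overlap, against 3.48% of all tested symbols higher and 2.82% lower.

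Among 12 other sugar and monocarboxylate carriers and their partners, 9 were positive (median 0.34). slc2a3b, the paralog of slc2a3a, averaged 30.5 ± 33.4 CPM in mutants and 5.83 ± 2.84 CPM in WT (log2 fold change 2.39 ± 0.75, edgeR adjusted p = 0.384). bsg, encoding basigin, which carries monocarboxylate transporters to the cell surface, averaged 188 ± 37.8 CPM in mutants and 132 ± 22.7 CPM in WT (edgeR adjusted p = 0.563). slc5a2, a sodium-coupled glucose carrier gene, was lower without overlap, at 0.258 ± 0.317 CPM in mutants and 4.75 ± 3.09 CPM in WT (edgeR adjusted p = 0.375). It was the only 1 of the 12 without overlap, against 3.48% of all tested symbols higher and 2.82% lower.

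Of 34 tested oxygen-sensitive genes, among them the member pdk1, 26 were positive (median 0.78), against 50.7% of all tested symbols. At an unadjusted p under 0.05 by edgeR 13 were higher, against 5.09% of all symbols, and 0 were called. Without cxcr4a mutant 1 the median was 0.67. In that fit 25 were positive and 6 were higher at that p, against 49.6% and 3.28% of all symbols. ddit4, an inhibitor of mTOR signalling induced by low oxygen and other stress, averaged 207 ± 92.1 CPM in mutants and 36.4 ± 22.3 CPM in WT without overlap (log2 fold change 2.51 ± 0.50, edgeR adjusted p = 0.145). It was 1 of 6 of the 34 genes whose groups did not overlap, all higher in mutants, against 3.48% of all tested symbols. Of 32 tested handling stress genes 22 were positive (median 0.23), and none had an unadjusted p under 0.05.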

How the data were processed

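The authors deposited raw counts, in whole numbers, for each symbol in 8 libraries. The submitters' processing notes name GRCz11, STAR 2.7.11a, cutadapt 5.2 and HTSeq. Per the labels' protocols, SMART-Seq v4 and Nextera XT were used, which do not keep strand, so overlapping antisense genes cannot be told apart, and reads of near-identical paralogs may be split.

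Of 53709 rows, 16024 carry an added number; rows of 1 symbol were summed before the fit, and the 40 members came from 51 rows. edgeR 4.0.16 in R 4.3.3 was used (filterByExpr, TMM, quasi-likelihood F-test, 2-sided, genotype as the only term, Benjamini-Hochberg adjustment over 16631 symbols). SEs come from the F statistic. All members are named, with the 3 genes of smallest p, or fewer, from each connected list. Members and lists were chosen with earlier results of these data known, and the marker sums set beside single genes were picked after their values were seen.

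Alternatives used DESeq2 1.42.0, limma 3.58.1 voom, other scalings and filters, rows kept apart, the replicate number as a block, and each library left out. Over 16631 genes simulated for this comparison, calls recovered 1.43% of true 2-fold, 38.8% of true 4-fold and 56.2% of true 8-fold changes. In each of 3 simulations 200 genes picked at random were changed, and of 200 calls in all 12 were false. Genes were drawn independently with the spread of all 8 libraries, so a set that moves together in 1 library was not simulated. No sequences of the members were used here.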

Additional observations from a re-analysis of the deposited data

Results flagged for a closer look

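In 72 checks, 1 for each tested member and genotype, 10 libraries lay so far from the rest of their group that the gap passed Dixon's 95% critical value for 4 libraries. Chance flags about 1 in 20 such groups, but only where values are normal and independent, which CPM of genes from the same libraries are not. In 9 of the 10, cxcr4a mutant 1 was the highest mutant: gpia at 1501 CPM against 350.3 CPM in the next mutant, aldocb at 2064 against 519, tpi1b at 368 against 172, gapdhs at 7501 against 2333, pgk1 at 2157 against 473, pkma at 2954 against 851, ldha at 1696 against 434, slc2a3a at 37.9 against 3.48 and slc16a3b at 341 against 88.8 CPM. The other was pfkla, where WT 1 was lowest at 25.8 CPM, with 31.8 CPM in the next WT library.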

How the results depend on the processing

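Over 18 alternatives, 8 of them leaving out 1 library, positive members numbered 29 to 34 of those tested. The 8 genes called over all symbols became 468 with DESeq2, 2 with limma voom, 63 with rows kept apart, 0 with the replicate block, 0 without cxcr4a mutant 1 and WT 1, and 0 to 9 when single libraries were left out. Members called became 2 with DESeq2 and 1 with rows kept apart. Members at an unadjusted p under 0.05 became 4 with voom and 2 with the replicate block, all higher in mutants. They became 4 without cxcr4a mutant 1 and WT 1 (an alternative chosen after seeing the data) and 5 to 14 without single libraries. With voom, the replicate block and without cxcr4a mutant 1 and WT 1, shares of all symbols at that p were not taken. The members' median log2 fold change was 0.35 without both, with 4 members not overlapping (3 higher, 1 lower, against 7.25% and 8.84% of all symbols), and 0.47 to 1.03 without single libraries. Of 647 member values, 18 turned direction, in 8 members. With voom these were hk1 (-0.15), pfkpb (-0.030), eno2 (-0.49) and slc2a3a (-0.89). With rows kept apart it was the plain row of hk2 (6.86), a part of that symbol, whose second row was at -3.17. With the replicate block it was eno2 (-0.93), and without both libraries hk1 (-0.46), pfkpa (-0.37) and pfkpb (-0.37). Without single libraries the ranges were -0.21 to 0.40 for hk1, -0.44 to 0.31 for hk2, -0.065 to 1.302 for pfkpa, -0.27 to 0.46 for pfkpb, -0.043 to 0.47 for pgam1b and -0.031 to 0.87 for pkmb. The causes were not tested. Deviations from the genotype mean correlated across genes at 0.0773, 0.0744, 0.0719 and -0.0815 between same-numbered libraries. Between a mutant and a WT library of unlike number they correlated at -0.116 to 0.201. These values do not decide whether the numbers mark pairs. The main fit did not take them as pairs. In the simulated counts few 2-fold changes were called.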
